A study of Homo sapiens with 12 samples.

Results

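Heat shock and chaperone genes were followed in IOSE80, a human cell line made by immortalising normal ovarian epithelium, which was exposed for 28 days. The set holds 44 genes, among them the HSP70, HSP90, J-domain and TRiC groups, and each gene was matched to the locus that carries its name, or to the locus with the highest mean where several did. The 44 genes lay at 43 of the 30574 loci in the deposited tables, because HSPA1A and HSPA1B share 1 assembled locus. All 43 loci passed the filter of at least 1 FPKM (fragments scaled to transcript length and library total) in at least 2 libraries, as did 12182 loci in all.

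The groups were cells with bisphenol A (BPA) at 0.25 nM (n = 3), BPA at 2500 nM (n = 3), E2 (n = 2) and 0.1% DMSO (n = 3). BPA is a monomer of plastics with weak oestrogenic activity, E2 commonly stands for estradiol, and the dose of E2 and the solvent of BPA and E2 are not given in the sources used here. E2 replicate 3 was not analysed here. All groups come from 1 cell line. The labels do not state whether replicates are separate cultures. A p-value here therefore reflects the spread among these libraries, and that spread may be technical.

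Chaperones of the HSP70 family bind exposed stretches of unfolded proteins and release them in a cycle of ATP hydrolysis. J-domain proteins bring clients and start the hydrolysis, while HSP110, BAG and HSPBP1-type factors exchange the nucleotide. HSP90 takes over partly folded clients, among them steroid hormone receptors, with the help of co-chaperones, and the ring-shaped TRiC complex encloses actin, tubulin and other clients. The transcription factor HSF1 is known to induce many of these genes on heat and other stress by binding inverted repeats of the letters GAA. Some of the 44 genes are not cytosolic: HSPA9, TRAP1, DNAJA3, HSPD1 and HSPE1 are known to act in mitochondria, and HSPB11 is known as a subunit of intraflagellar transport.

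Total FPKM per library lay between 206719 and 213663, and mitochondrial loci took 12.26% to 14.31% of it. Of the epithelial markers fixed for the check, ALDH1A1 averaged 109 FPKM, KRT18 22.8 FPKM, NR2F2 3.19 FPKM and KRT8 1.34 FPKM. WT1, GATA4, BNC1, MSLN, CALB2, UPK3B, CDH1, KRT19 and LHX9 stayed at or below 0.21 FPKM in every library, and KRT7 at or below 0.74 FPKM. The markers thus only partly match an ovarian surface epithelium. Of the other cell types, the leukocyte genes PTPRC and LYZ and the endothelial gene CDH5 were at or near 0, while CD68 stood at 45.97 FPKM. The granulosa gene FOXL2 averaged 6.78 FPKM, from 5.36 to 7.70 FPKM over the libraries. AMH averaged 0.78 FPKM, CYP19A1 stayed at or below 0.01 FPKM and FSHR had no locus. Of 7 fibroblast genes COL3A1 stood at 28.7, PDGFRA at 5.23 and THY1 at 1.45 FPKM. COL1A1, COL1A2, DCN and LUM stayed at or below 0.56 FPKM in every library. The fibroblast sum was 38 to 40.6 FPKM with BPA 0.25 nM, 30 to 30.5 FPKM with BPA 2500 nM and 34.3 to 36.4 FPKM with E2, against 37.4 to 39.5 FPKM in DMSO. Most of it was COL3A1, which passed the test with BPA 2500 nM (log2 change -0.40, adjusted p 0.00591 in limma), while PDGFRA averaged 5.19 FPKM both there and in DMSO. The sum of 14 epithelial genes was 134 to 143 FPKM with BPA 0.25 nM, 122 to 127 FPKM with BPA 2500 nM and 141 to 143 FPKM with E2, against 134 to 151 FPKM in DMSO, and ALDH1A1 passed the test with BPA 2500 nM (-0.25, adjusted p 0.048 in limma). Summed over 11 genes that respond to handling, FPKM was 69.8 to 78 with BPA 0.25 nM, 90.4 to 95.1 with BPA 2500 nM and 68.4 to 99.5 with E2, against 78.8 to 82.6 in DMSO. With BPA 2500 nM the immediate early gene IER2 averaged 18.9 FPKM, against 4.65 FPKM in DMSO (adjusted p 0.136 in limma), JUNB 30.8 FPKM in both, and ATF3 0.81 FPKM, against 1.53 FPKM in DMSO (adjusted p 0.0503 in limma). The part of these lists in the results below was not tested. 2 libraries stood apart, among the chaperone genes and over all loci. DMSO replicate 2 and E2 replicate 2 had the lowest FPKM totals, 206774 and 206719, and the most loci above 0, 23696 and 22699. Their median correlations with the other libraries, 0.9793 and 0.9762, were also the lowest. DMSO replicate 2 held the lowest value of 18 of the 43 loci, and E2 replicate 2 the highest value of 15. Counts are therefore also given without these 2 libraries.

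The letters bound by heat shock factors were looked up in RefSeq promoter windows (GRCh38.p14), which span 250 bases before to 50 bases after a gene's start. 38 of the 44 genes had a window. The search took 3 units in a row on both strands, spelled GAANNTTC followed by NNGAA, or TTCNNGAA followed by NNTTC, which overlap where more than 3 units follow each other. 7 of the 38 genes (18.4%) carried them, against 0.608% of all 27305 genes with a window. A match is a description of the letters and not a bound site. With 2 units (GAANNTTC or TTCNNGAA, which lie within the longer motif) the shares were 50% of the 38 genes and 16.2% of all genes. For each of the 7 genes the stretch with 3 or more units nearest to its start is shown, because the genes include the most abundant HSP70 and HSP90 genes measured here, with the motif in capitals and each read 5′ to 3′ on the gene's strand.
HSPA8: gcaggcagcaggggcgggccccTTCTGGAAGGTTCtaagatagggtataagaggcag
HSP90AA1: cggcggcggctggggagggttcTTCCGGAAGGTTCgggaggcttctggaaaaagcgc
HSP90AB1: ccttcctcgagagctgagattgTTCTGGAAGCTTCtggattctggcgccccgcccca
DNAJA1: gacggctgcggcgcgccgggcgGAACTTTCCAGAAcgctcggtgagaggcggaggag
DNAJB6: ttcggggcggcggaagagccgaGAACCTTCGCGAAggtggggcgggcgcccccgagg
CHORDC1: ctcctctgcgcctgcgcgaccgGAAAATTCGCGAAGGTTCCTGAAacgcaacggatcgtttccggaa
HSPD1: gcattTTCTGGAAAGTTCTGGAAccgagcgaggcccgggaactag

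The stretches lie at chr11:123062157-123062213 (minus strand) for HSPA8, chr14:102087098-102087154 (minus) for HSP90AA1 and chr6:44247809-44247865 (plus) for HSP90AB1. Those of DNAJA1 and DNAJB6 lie at chr9:33025254-33025310 (plus) and chr7:157336851-157336907 (plus). For CHORDC1 and HSPD1 the positions are chr11:90223065-90223131 (minus) and chr2:197500046-197500090 (minus). The motif shown begins 55 bases before the start of HSPA8, 88 before that of HSP90AA1, 112 before that of HSP90AB1, 131 before that of DNAJB6, 60 before that of CHORDC1 and 245 before that of HSPD1. In DNAJA1 it begins 3 bases past the start. A further match of 3 units, not shown, begins 230 bases before the start of HSPA8 and 165 before that of HSP90AB1. The motif of HSPD1 was found in the window chr2:197499791-197500090, and its 245 bases are counted from the start to which that window belongs. This window lies inside the measured HSPD1 locus, which reaches 197500274, so the motif stands within that locus and not before it. HSPD1 and HSPE1 are neighbours that face away from each other. Their annotated starts lie 105 bases apart, counted from the HSPD1 start with the highest coordinate, which need not be the start used for the motif. The near copies HSPA1A and HSPA1B hold 2 units in a row in this window. The search did not count units split by a gap, and a further gaa stands in lower case before the 2 units. Their stretches show how alike the promoters of the shared locus are.
HSPA1A: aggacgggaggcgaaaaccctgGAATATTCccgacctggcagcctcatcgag
HSPA1B: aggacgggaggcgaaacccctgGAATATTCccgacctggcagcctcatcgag

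These lie on the plus strand at chr6:31815415-31815466 and chr6:31827611-31827662. Over the whole windows, 277 bases were identical, with 22 mismatches and 2 gaps.

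Transcripts of the constitutive cytosolic chaperones were abundant in every group. FPKM is per length, so levels of different genes can be set side by side. 12 of the 43 loci averaged 100 FPKM or more over the 11 libraries and 10 averaged under 10 FPKM. HSP90AB1, the constitutive cytosolic HSP90, was highest at 1063 FPKM, followed by HSPA8, the constitutive cytosolic HSP70, at 366 FPKM, CCT8 at 300 FPKM, HSPD1 at 298 FPKM and HSP90AA1, the inducible HSP90, at 264 FPKM. The inducible HSP70 locus HSPA1A/HSPA1B stood at 13.2 FPKM, and HSPB1, the small heat shock protein HSP27, at 2.69 FPKM. The HSPB1 locus in the tables spans 12332 bases, against 1752 bases of the annotated gene, so its level per length is uncertain. Between the lowest and the highest of the 11 libraries, 38 of the 43 loci differed by less than 1.5-fold.

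Relative to DMSO, most of the chaperone loci lay slightly higher under each exposure, but no single locus passed the test. The share of all FPKM taken by the 43 loci was 1.89 ± 0.0372% at BPA 0.25 nM (SD, n = 3), 1.94 ± 0.0748% at BPA 2500 nM (n = 3) and 2.03 ± 0.121% under E2 (n = 2), against 1.78 ± 0.00207% in DMSO (n = 3). Every treated library, from 1.87% upward, lay above the 3 DMSO libraries, which all stood at 1.78%. This share is a sum set mainly by the most abundant loci, with HSP90AB1 alone at 25.6% to 26.9% of it. It therefore says little about the less abundant loci. Mitochondrial loci took 12.62% to 12.66% of FPKM with BPA 0.25 nM, 12.94% to 13.62% with BPA 2500 nM, and 12.26% and 14% in the E2 libraries, against 13.63% to 14.31% in DMSO. With them taken out of the total, the shares were 2.14% to 2.22% with BPA 0.25 nM, 2.16% to 2.33% with BPA 2500 nM and 2.27% to 2.42% with E2, against 2.06% to 2.08% in DMSO. In such bulk samples, fewer cells of a type and less RNA per cell cannot be told apart.

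Each locus was tested with limma on log2(FPKM + 1), with p-values adjusted by Benjamini-Hochberg over all 12182 loci. With BPA 0.25 nM, 0 of the 43 loci were called at an adjusted p under 0.05, where 0.0164% of all loci were. The lowest adjusted p was 0.342, for CCT3. 9 loci had an unadjusted p under 0.05 (20.9%, against 9.11% of all loci), 7 of them higher and 2 lower, where 5.24% of all loci were higher and 3.87% lower. The median log2 change was 0.06, against 0.001 over all loci, and 31 of 43 lay above 0 (72.1%, against 50.3%).

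With BPA 2500 nM, again 0 of the 43 loci were called in limma, where 1.3% of all loci were, and the lowest adjusted p was 0.0674, for CCT3. 13 had an unadjusted p under 0.05 (30.2%, against 17.2% of all loci), 12 higher and 1 lower, where 6.05% of all loci were higher and 11.2% lower. Here the median was 0.06 against -0.03 over all loci, and 32 of 43 lay above 0 (74.4%, against 42.8%).

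With E2, 0 of 43 loci were called, where 0.419% of all loci were, and HSPE1 had the lowest adjusted p in limma, 0.0779. 16 loci had an unadjusted p under 0.05 (37.2%, against 15.4%), all of them higher, where 6.2% of all loci were higher and 9.22% lower. The median log2 change was 0.10 against -0.01 over all loci, and 30 of 43 lay above 0 (69.8%, against 48.1%). The 3 comparisons share the same DMSO libraries, so their values are not independent of each other.

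The 95% intervals bound how large a difference these libraries leave room for. They lay within 0.5 log2 units of 0 for 38 of 43 loci at BPA 0.25 nM, 38 at BPA 2500 nM and 37 under E2. The widest belonged to HSPA1A/HSPA1B, from -1.25 to 0.88 with E2.

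Overlap between libraries was counted without a model. All libraries of BPA 0.25 nM lay above all DMSO libraries for 16 of 43 loci (37.2%, against 9.01% of all loci) and below them for 2 (4.65%, against 8.05%). All libraries of BPA 2500 nM lay above DMSO for 13 (30.2%, against 9.54%) and below for 2 (4.65%, against 17.1%). Both E2 libraries lay above DMSO for 20 (46.5%, against 12.2%) and below for 0 (16.2% of all loci). Without DMSO replicate 2 and E2 replicate 2, the counts above and below were 19 and 3 for BPA 0.25 nM, where 13.4% of all loci lay above and 12.2% below. For BPA 2500 nM they were 14 and 2, where 13.3% and 22.7% of all loci did so. For the remaining E2 library they were 26 and 9, where 31.5% and 40.9% of all loci did so. The median log2 changes were then 0.03, 0.07 and 0.08.

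**Figure D1:**
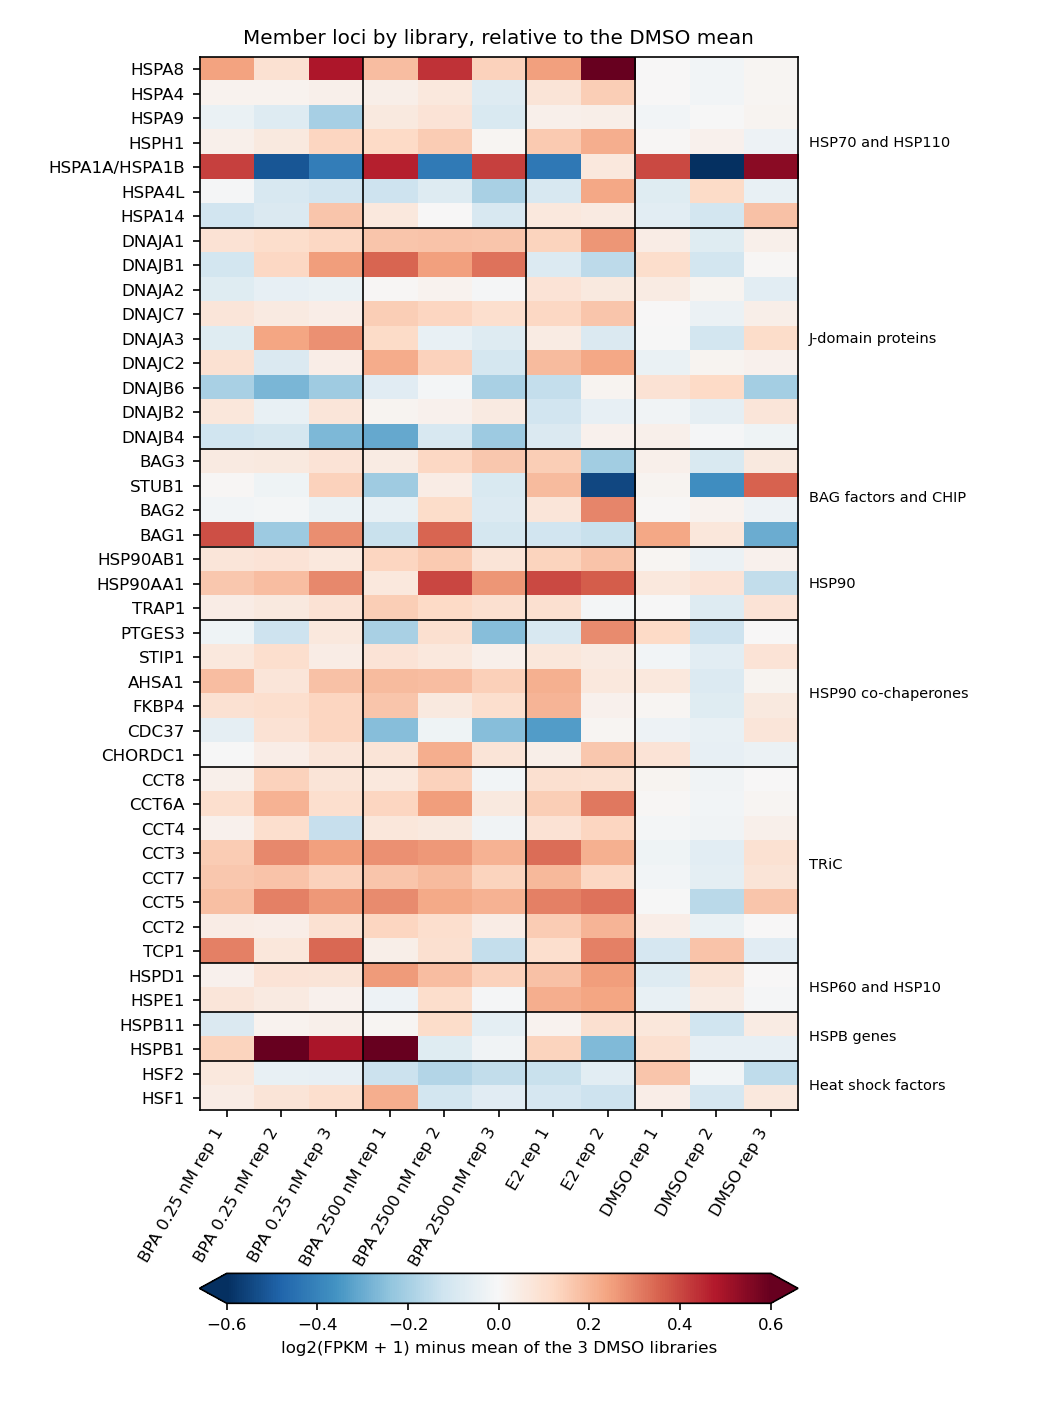
Each row is 1 of the 43 loci, grouped by family, and each column a library. Colour gives log2(FPKM + 1) minus the mean of the 3 DMSO libraries. The TRiC and HSP90 rows are mostly red in treated columns, and HSPA1A/HSPA1B alternates within each group.

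**Figure D2:**
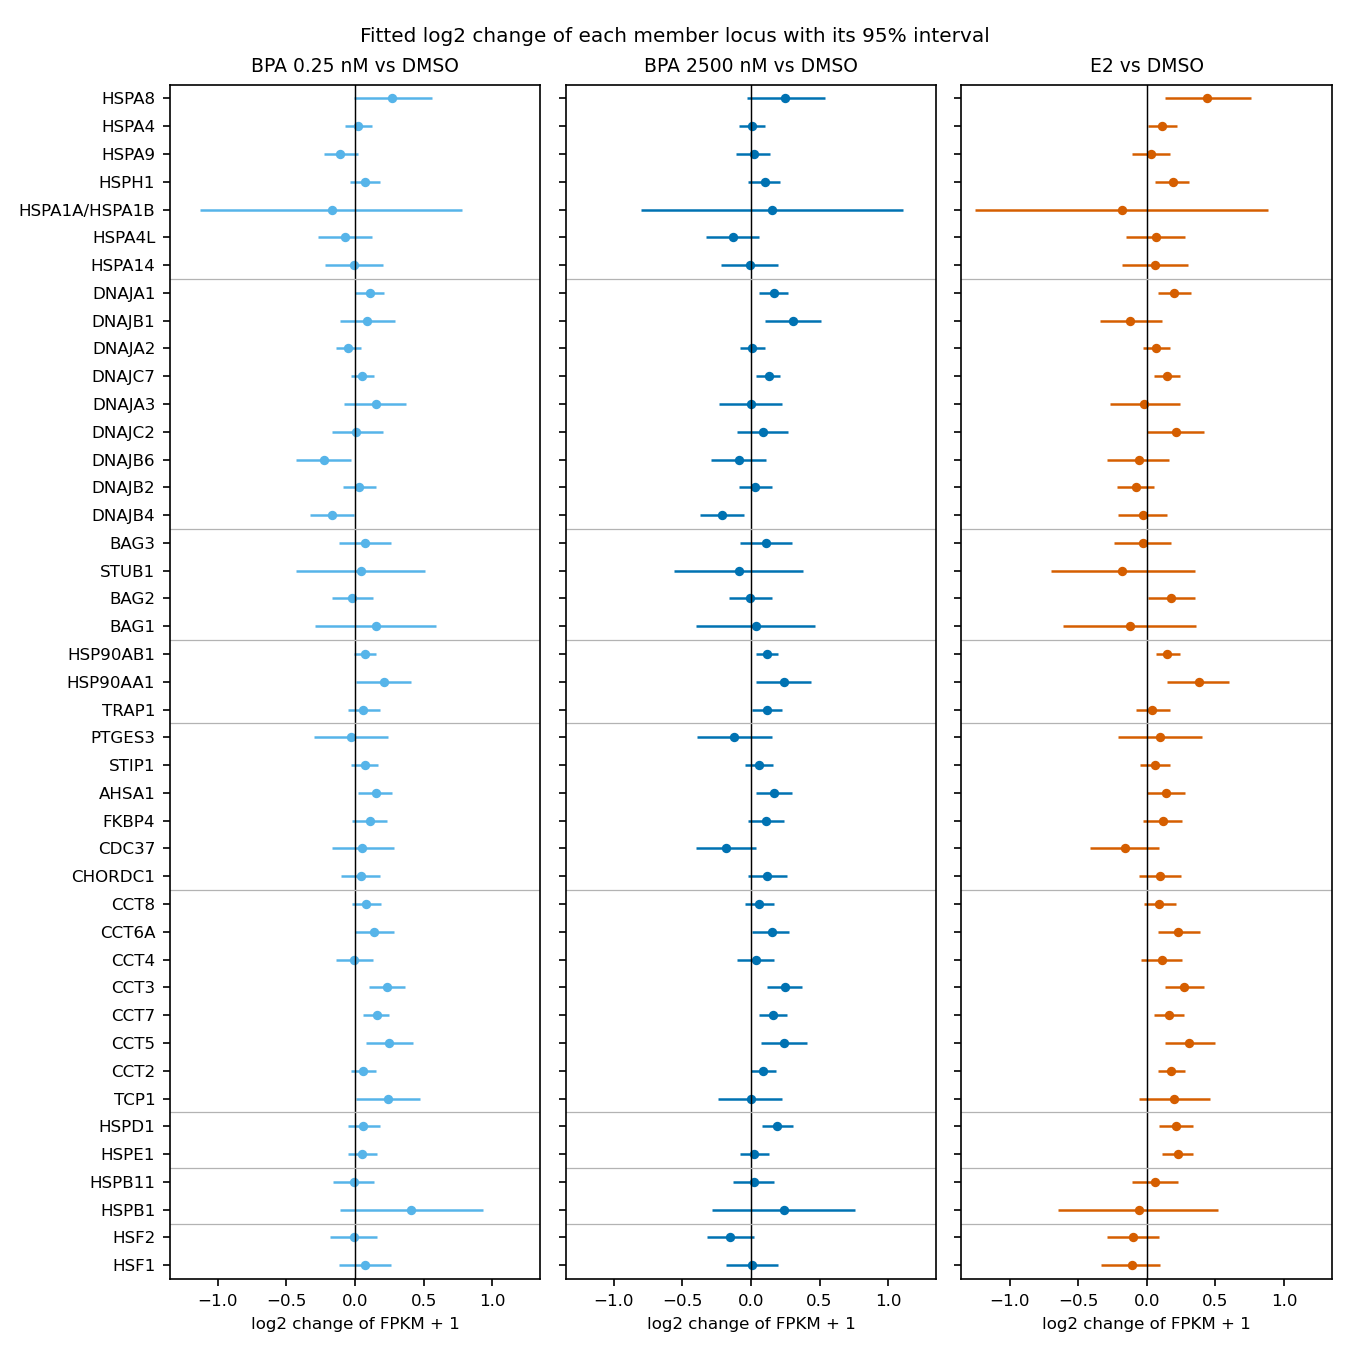
Fitted log2 change (points) with 95% interval (lines) of each locus in limma for BPA 0.25 nM, BPA 2500 nM and E2, each against DMSO. The interval of HSPA1A/HSPA1B with E2 is the widest, from -1.25 to 0.88, and no locus passed the adjusted test.

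The HSP70 and HSP110 group showed no common direction with BPA. Its 7 loci had a median log2 change of -0.01 at BPA 0.25 nM, 0.02 at BPA 2500 nM and 0.07 under E2, with 3, 5 and 6 loci above 0. HSPA8 read 366, 330.3 and 435 FPKM at BPA 0.25 nM, 352, 419 and 342 FPKM at BPA 2500 nM, and 368 and 484 FPKM under E2, against 310.1, 307 and 313 FPKM in DMSO. Every treated library lay above the 3 DMSO libraries, which were close together, while the treated libraries spread widely. In limma the log2 changes were 0.27 (SE 0.13, adjusted p 0.554) with BPA 0.25 nM, 0.25 (SE 0.13, adjusted p 0.339) with BPA 2500 nM and 0.44 (SE 0.14, adjusted p 0.175) with E2. The HSPA8 locus also names 2 snoRNAs, SNORD14C and SNORD14D, that lie in its introns.

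The stress-inducible HSPA1A/HSPA1B locus read 17.4, 8.69 and 9.39 FPKM with BPA 0.25 nM, 18.2, 9.31 and 17.4 FPKM with BPA 2500 nM, and 9.28 and 13.5 FPKM with E2, against 17.2, 6.23 and 19.1 FPKM in DMSO. Low and high libraries stood side by side in every group, and all groups overlapped. The locus spans 24378 bases and also names C6orf48 and 2 snoRNAs, and reads of the near copies may be split, so its level is uncertain. Its log2 change was -0.17 (95% interval -1.13 to 0.78) with BPA 0.25 nM, 0.15 (-0.80 to 1.11) with BPA 2500 nM and -0.18 (-1.25 to 0.88) with E2.

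HSPH1, the inducible HSP110 that exchanges the nucleotide of HSP70, read 17.3, 17.6 and 18.6 FPKM with BPA 0.25 nM, 18.5, 18.9 and 17.1 FPKM with BPA 2500 nM, and 18.9 and 19.8 FPKM with E2, against 16.95, 17.2 and 16.5 FPKM in DMSO. Both E2 libraries and all BPA 0.25 nM libraries lay above DMSO, the BPA libraries narrowly. The log2 changes were 0.07 (SE 0.05), 0.10 (SE 0.05) and 0.19 (SE 0.06) with BPA 0.25 nM, BPA 2500 nM and E2, with adjusted p of 0.709, 0.363 and 0.154 in limma. HSPA4, a further HSP110, averaged 102, 101 and 109 FPKM in the 3 treatments, against 100 FPKM in DMSO, and its interval with BPA 2500 nM ran from -0.09 to 0.10. The mitochondrial HSP70 gene HSPA9 was at 88.2 FPKM with BPA 0.25 nM, where all libraries lay below DMSO (94.9 FPKM; log2 change -0.11, adjusted p 0.611). HSPA4L and the ribosome-bound HSPA14 averaged 10.8 and 9.13 FPKM over all libraries.

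J-domain proteins split by gene. Their 9 loci had medians of 0.03, 0.03 and -0.02 with BPA 0.25 nM, BPA 2500 nM and E2, with 6, 6 and 4 above 0. DNAJA1, the most abundant J-domain gene here and a partner of cytosolic HSP70, read 172, 174 and 176 FPKM at BPA 0.25 nM, 181, 182 and 181 FPKM at BPA 2500 nM, and 177 and 194 FPKM under E2, against 166, 153 and 165 FPKM in DMSO. No treated library reached down to DMSO. Its log2 changes in limma were 0.11 (SE 0.05, adjusted p 0.543), 0.17 (SE 0.05, adjusted p 0.112) and 0.20 (SE 0.05, adjusted p 0.109) in the same order of treatments.

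DNAJB1, the heat-inducible HSP40, read 31.9, 37.7 and 41.3 FPKM with BPA 0.25 nM, 44.2, 41.0 and 43.5 FPKM with BPA 2500 nM, and 32.5 and 30.8 FPKM with E2, against 37.1, 31.9 and 34.6 FPKM in DMSO. BPA 2500 nM alone was separated from DMSO, whereas E2 and BPA 0.25 nM overlapped with it. The log2 change with BPA 2500 nM was 0.31 (SE 0.09, adjusted p 0.133), the highest of the 43 loci in that comparison. With E2 it was -0.12 (SE 0.10, adjusted p 0.633).

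DNAJB6, known to hold back the aggregation of polyglutamine proteins, was lowest on average with BPA 0.25 nM. It read 8.20, 7.71 and 8.07 FPKM with BPA 0.25 nM, 9.03, 9.44 and 8.21 FPKM with BPA 2500 nM, and 8.53 and 9.63 FPKM with E2, against 10.2, 10.4 and 8.14 FPKM in DMSO. DMSO replicate 3 lay among the BPA values, so the groups overlapped, and the log2 change with BPA 0.25 nM was -0.23 (SE 0.09, adjusted p 0.518). DNAJB4 was below all DMSO libraries at both BPA doses, at 2.26 FPKM with BPA 0.25 nM and 2.17 FPKM with BPA 2500 nM, against 2.66 FPKM in DMSO (adjusted p 0.54 and 0.189). Its locus joins GIPC2, so the level is uncertain. DNAJC7, a J-domain protein with TPR repeats, was above DMSO in every treated library, with means of 16, 16.9 and 17.1 FPKM, against 15.4 FPKM. DNAJA2, DNAJA3, DNAJB2 and DNAJC2 averaged 25.1, 10.4, 4.97 and 9.18 FPKM over all libraries, and their log2 changes against DMSO lay between -0.08 and 0.21.

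The BAG factors, which release clients from HSP70, and CHIP, the ubiquitin ligase encoded by STUB1, had medians of 0.05, 0.02 and -0.08 with BPA 0.25 nM, BPA 2500 nM and E2. BAG3, the stress-inducible member linked to autophagy, read 19.3, 19.3 and 19.7 FPKM with BPA 0.25 nM, 19.2, 20.3 and 20.8 FPKM with BPA 2500 nM, and 20.6 and 15.9 FPKM with E2, against 18.9, 17.3 and 19.3 FPKM in DMSO. All 3 treatments overlapped with DMSO, and E2 replicate 2 held the lowest value. Its log2 changes were 0.07, 0.11 and -0.03, with intervals of -0.12 to 0.26, -0.08 to 0.30 and -0.24 to 0.18. BAG2, an inhibitor of CHIP, read 12.2 and 14.3 FPKM with E2, against 11.6, 11.7 and 11.3 FPKM in DMSO (log2 change 0.18, SE 0.08, adjusted p 0.292). At the BPA doses BAG2 averaged 11.3 and 11.5 FPKM. STUB1 itself ranged from 8.21 FPKM in E2 replicate 2 to 16.2 FPKM in DMSO replicate 3, and BAG1 from 3.22 to 5.78 FPKM, with overlap in every comparison.

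All 3 HSP90 genes lay above their DMSO means under every treatment, with median log2 changes of 0.07, 0.12 and 0.15 for BPA 0.25 nM, BPA 2500 nM and E2. HSP90AB1 read 1057, 1062 and 1047 FPKM with BPA 0.25 nM, 1099, 1117 and 1059.6 FPKM with BPA 2500 nM, and 1103 and 1132 FPKM with E2, against 1011, 978 and 1022 FPKM in DMSO. The lowest treated library exceeded the highest DMSO library, though by little. The log2 changes were 0.07 (SE 0.04, adjusted p 0.572), 0.12 (SE 0.04, adjusted p 0.13) and 0.15 (SE 0.04, adjusted p 0.106) in limma. HSP90AB1 alone made up 25.6% to 26.9% of the FPKM of the 43 loci.

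HSP90AA1 read 257, 261 and 281 FPKM with BPA 0.25 nM, 239.5, 304 and 276 FPKM with BPA 2500 nM, and 303 and 295 FPKM with E2, against 239.8, 243 and 207 FPKM in DMSO. BPA 0.25 nM and E2 were separated from DMSO, while replicate 1 of BPA 2500 nM fell among the DMSO libraries. Its log2 changes were 0.21 (SE 0.09, adjusted p 0.536), 0.24 (SE 0.09, adjusted p 0.214) and 0.38 (SE 0.10, adjusted p 0.115). The ratio of HSP90AB1 to HSP90AA1 was 3.97 ± 0.212 at BPA 0.25 nM, 4.04 ± 0.484 at BPA 2500 nM and 3.74 ± 0.135 under E2, against 4.39 ± 0.48 in DMSO. TRAP1, the mitochondrial HSP90, averaged 28.5, 29.8 and 28.1 FPKM in the 3 treatments, against 27.3 FPKM in DMSO (log2 changes 0.06, 0.12 and 0.04).

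Of the 6 HSP90 co-chaperones, 5, 4 and 5 lay above 0 with BPA 0.25 nM, BPA 2500 nM and E2 (medians 0.06, 0.08 and 0.10). AHSA1, which stimulates the ATPase of HSP90, read 51.5, 47.6 and 51.2 FPKM with BPA 0.25 nM, 51.6, 51.5 and 49.9 FPKM with BPA 2500 nM, and 52.5 and 47.2 FPKM with E2, against 47.3, 42.6 and 45.7 FPKM in DMSO. Both BPA groups lay above DMSO, and E2 overlapped with it. The log2 changes were 0.15 (SE 0.06, adjusted p 0.514), 0.17 (SE 0.06, adjusted p 0.171) and 0.14 (SE 0.06, adjusted p 0.337).

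PTGES3, the p23 protein that stabilises closed HSP90, was the most abundant co-chaperone at 119 FPKM. It read 118, 110.1 and 126 FPKM with BPA 0.25 nM, 105, 129 and 100.4 FPKM with BPA 2500 nM, and 112 and 147 FPKM with E2, against 131, 110.01 and 121 FPKM in DMSO. No group stood apart, and the intervals of its log2 changes ran from -0.30 to 0.24, -0.39 to 0.15 and -0.21 to 0.40. FKBP4, a co-chaperone of steroid receptors, averaged 44.6, 44.8 and 45 FPKM, against 41.4 FPKM in DMSO (log2 changes 0.11, 0.11 and 0.12). STIP1, which links HSP70 to HSP90, averaged 76.6, 75.9 and 76.1 FPKM, against 73 FPKM in DMSO. CDC37, which brings protein kinases to HSP90, had log2 changes of 0.05, -0.18 and -0.16, and CHORDC1, which binds HSP90, of 0.04, 0.12 and 0.10.

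Most TRiC subunit genes lay above DMSO. 7, 7 and 8 of the 8 genes had a log2 change above 0 with BPA 0.25 nM, BPA 2500 nM and E2, with medians of 0.15, 0.12 and 0.19. All libraries lay above DMSO for 6, 5 and 7 of the 8 genes (75%, 62.5% and 87.5%), against 9.01%, 9.54% and 12.2% of all loci. With BPA 0.25 nM the margin was narrow for CCT2 and CCT5. Summed over the 8 genes, FPKM was 1016 ± 27.3 at BPA 0.25 nM (SD, n = 3), 1011 ± 40.2 at BPA 2500 nM (n = 3) and 1051 ± 11.2 under E2 (n = 2), against 931 ± 22.3 in DMSO (n = 3). The lowest treated sum was 967 and the highest DMSO sum 955. 4, 4 and 5 of the 8 genes had an unadjusted p under 0.05 in limma, all higher (50%, 50% and 62.5%). Of all loci, 5.24%, 6.05% and 6.2% were higher by that rule. 0 of the 8 genes passed the adjusted test.

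CCT3 had the lowest adjusted p of the TRiC genes in all 3 comparisons. It read 123, 135 and 131 FPKM at BPA 0.25 nM, 134, 133 and 128 FPKM at BPA 2500 nM, and 139.9 and 128 FPKM under E2, against 109, 106 and 118 FPKM in DMSO. No treated library overlapped with DMSO. In limma the log2 changes were 0.23 (SE 0.06, adjusted p 0.342), 0.25 (SE 0.06, adjusted p 0.0674) and 0.27 (SE 0.06, adjusted p 0.0783). CCT5 averaged 91.9, 91.2 and 96.1 FPKM, against 77.5 FPKM in DMSO, where its libraries spread from 68.8 to 86.8 FPKM (log2 changes 0.25, 0.24 and 0.31). CCT7 averaged 103 FPKM in each treatment, against 92.1 FPKM in DMSO (log2 change 0.16 in each).

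CCT8, the most abundant subunit gene, read 295, 317 and 304 FPKM at BPA 0.25 nM, 302, 317 and 285 FPKM at BPA 2500 nM, and 308 and 307 FPKM under E2, against 292, 284 and 289 FPKM in DMSO. BPA 2500 nM overlapped with DMSO, and the other treatments lay just above it. Its log2 changes were 0.08 (SE 0.05), 0.06 (SE 0.05) and 0.09 (SE 0.05), with adjusted p of 0.628, 0.516 and 0.433 in limma. TCP1 was lowest of the 8 genes in every library, at 50.4 FPKM on average. Between the BPA doses it had 47.8, 49.9 and 42.1 FPKM at 2500 nM, against 57.6, 48.9 and 59.4 FPKM at 0.25 nM (log2 change -0.24, adjusted p 0.631). Its locus names 2 snoRNAs.

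Although the protein complex holds its subunits in equal numbers, the transcripts did not. The order CCT7, CCT5, CCT2, TCP1 below the others and CCT8 on top was the same in all 11 libraries, and only CCT6A, CCT4 and CCT3 changed places among ranks 2 to 4. The highest subunit exceeded the lowest by 5.57 ± 0.788-fold with BPA 0.25 nM, 6.48 ± 0.256-fold with BPA 2500 nM and 5.73 ± 0.579-fold with E2, against 6.22 ± 0.706-fold in DMSO.

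**Figure D3:**
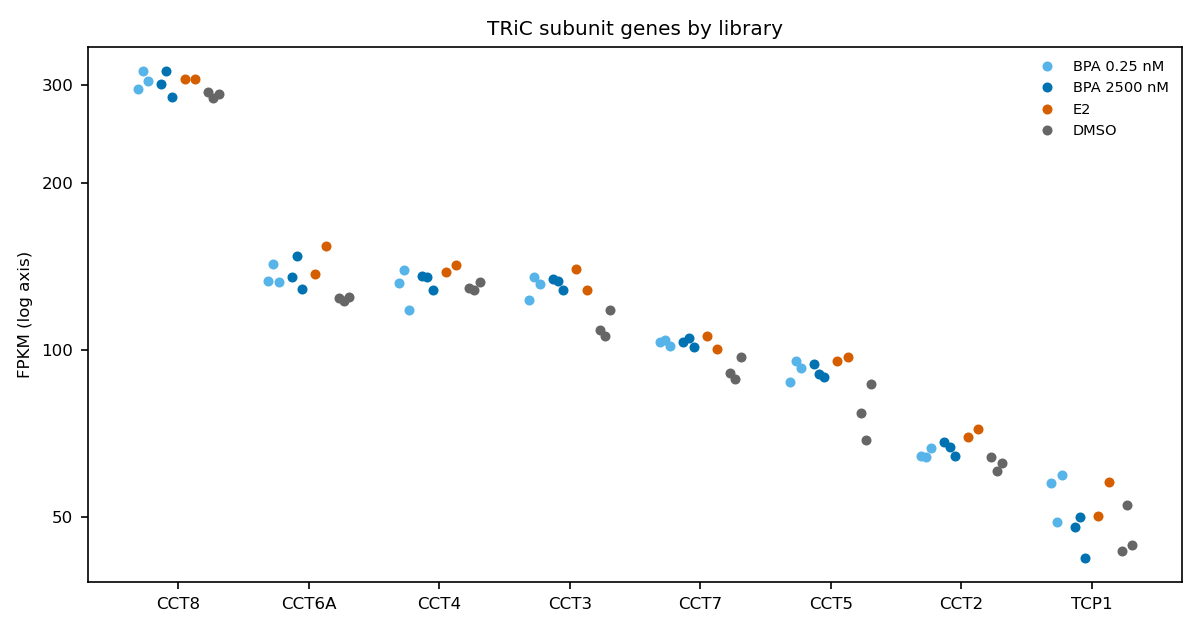
FPKM of the 8 TRiC subunit genes in each library, on a log axis, with the genes in falling order of their mean (CCT8 at 300 FPKM, TCP1 at 50.4 FPKM) and colours for the groups. CCT2, CCT3, CCT5, CCT6A and CCT7 show the DMSO points below all treated points. The margin is narrow for CCT2 (64.11 FPKM in DMSO replicate 1, 64.17 FPKM in BPA 0.25 nM replicate 2). It is also narrow for CCT5 (86.79 FPKM in DMSO replicate 3, 87.58 FPKM in BPA 0.25 nM replicate 1).

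The mitochondrial chaperonin pair HSPD1 and HSPE1 had median log2 changes of 0.06, 0.11 and 0.22 with BPA 0.25 nM, BPA 2500 nM and E2. HSPD1 (HSP60) read 281, 292 and 291 FPKM with BPA 0.25 nM, 329.9, 314 and 304 FPKM with BPA 2500 nM, and 311 and 329 FPKM with E2, against 261, 291 and 276 FPKM in DMSO. BPA 2500 nM and E2 lay above all DMSO libraries, and BPA 0.25 nM overlapped with them. The log2 changes were 0.06 (SE 0.05, adjusted p 0.76), 0.19 (SE 0.05, adjusted p 0.0967) and 0.21 (SE 0.06, adjusted p 0.117).

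HSPE1 (HSP10), the lid of the HSP60 ring, read 51.9, 51.2 and 50.2 FPKM with BPA 0.25 nM, 48.2, 53.1 and 49.0 FPKM with BPA 2500 nM, and 57.5 and 58.2 FPKM with E2, against 47.8, 51.1 and 49.1 FPKM in DMSO. E2 alone was separated from DMSO. Its log2 changes were 0.05 (SE 0.05, adjusted p 0.781), 0.02 (SE 0.05, adjusted p 0.846) and 0.23 (SE 0.05, adjusted p 0.0779). The HSPE1 locus is joined with its neighbour MOB4, so its level is uncertain. The ratio of HSPD1 to HSPE1 was 5.64 ± 0.204 at BPA 0.25 nM, 6.32 ± 0.477 at BPA 2500 nM and 5.53 ± 0.166 under E2, against 5.6 ± 0.121 in DMSO.

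HSPB1 read 2.52, 3.91 and 3.5 FPKM with BPA 0.25 nM, 4.66, 2.05 and 2.16 FPKM with BPA 2500 nM, and 2.52 and 1.67 FPKM with E2, against 2.43, 2.10 and 2.10 FPKM in DMSO. The mean of BPA 2500 nM rested on replicate 1, without which the log2 change was -0.05 in place of 0.24. With BPA 0.25 nM the log2 change was 0.41 (SE 0.23, adjusted p 0.632) and with E2 -0.06 (SE 0.26, adjusted p 0.941). HSPB11 averaged 14.4, 14.8 and 15.2 FPKM, against 14.6 FPKM in DMSO, with log2 changes of -0.01, 0.02 and 0.06 and overlap throughout.

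The regulators themselves were low beside the abundant chaperone genes, at means of 5.98 FPKM for HSF1 and 9.66 FPKM for HSF2. Of the 12182 tested loci, 6362 averaged at least 5 FPKM. HSF1 read 6.16, 6.32 and 6.45 FPKM with BPA 0.25 nM, 7.07, 5.43 and 5.63 FPKM with BPA 2500 nM, and 5.48 and 5.36 FPKM with E2, against 6.13, 5.47 and 6.25 FPKM in DMSO. Every treatment overlapped with DMSO, and the log2 changes were 0.07 (95% interval -0.12 to 0.26), 0.01 (-0.18 to 0.20) and -0.11 (-0.33 to 0.10). HSF2, a related factor, read 10.6, 9.77 and 9.72 FPKM with BPA 0.25 nM, 9.16, 8.84 and 9.02 FPKM with BPA 2500 nM, and 9.10 and 9.63 FPKM with E2, against 11.5, 9.97 and 9.0 FPKM in DMSO. It too overlapped with DMSO in each treatment, with log2 changes of -0.01 (95% interval -0.18 to 0.16), -0.15 (-0.32 to 0.02) and -0.10 (-0.29 to 0.09). HSF1 activity is known to be set largely at the protein level, which these data do not measure.

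**Figure D4:**
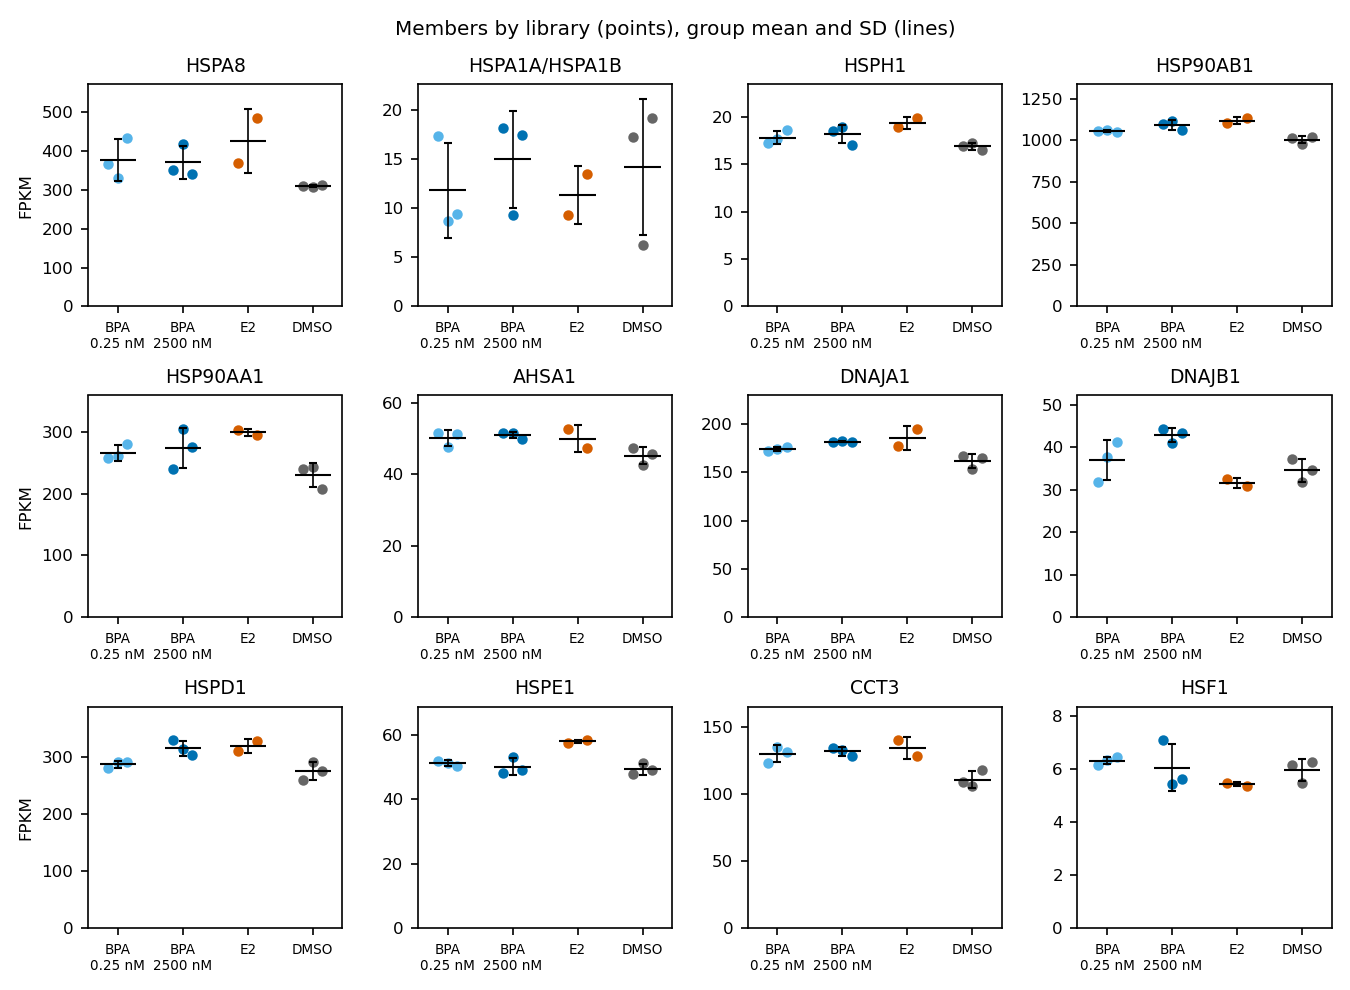
FPKM of 12 loci in each library (points), with group mean and SD (lines), from 0 upward, for BPA 0.25 nM, BPA 2500 nM, E2 and DMSO. CCT3 and HSP90AB1 show DMSO below every treated library, DNAJB1 is highest with BPA 2500 nM, and HSPA1A/HSPA1B scatters from 6.23 to 19.1 FPKM.

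The high and low BPA doses were also set against each other. In limma 0 of the 43 loci were called between BPA 2500 nM and BPA 0.25 nM, where 0.0657% of all loci were, and 4 had an unadjusted p under 0.05 (9.3%, against 7.81%): HSPD1 and DNAJB1 higher, TCP1 and CDC37 lower at 2500 nM. Of all loci, 2.12% were higher and 5.69% lower by that rule. The lowest adjusted p was 0.586, for HSPD1 (log2 change 0.13, SE 0.05). All libraries of BPA 2500 nM lay above those of BPA 0.25 nM for 7 loci (16.3%, against 4.66% of all loci, with 12% of all loci below), which were HSPD1, TRAP1, DNAJA1, DNAJA2, DNAJB6, DNAJC7 and CHORDC1, and below them for HSF2. This count moved to 14 in all after rescaling, for which the share of all loci is not given here. The 95% intervals lay within 0.5 log2 units of 0 for 39 of 43 loci, and TRiC differed little as a group (median log2 change 0.01).

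The loci with 3 units of the heat shock letters had median log2 changes of 0.07, 0.17 and 0.20 with BPA 0.25 nM, BPA 2500 nM and E2 (6 of 7 above 0 each time, DNAJB6 being the exception). The 30 other loci with a window had medians of 0.06, 0.05 and 0.08. These 7 are mostly abundant genes, the sets were not tested against each other, and most TRiC genes, which lay above DMSO as well, are among the 30.

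Replicates agreed closely for most of these loci. The median SD between libraries of a group was 0.082 on the log2 scale over the 43 loci, against 0.104 over all tested loci and 0.092 over those with a mean of at least 5 FPKM. It was largest for HSPA1A/HSPA1B (0.593), HSPB1 (0.321), STUB1 (0.289), BAG1 (0.268) and HSPA8 (0.173). The 4 loci that name a snoRNA had a median of 0.157, against 0.077 over the other 39. They ran from 0.067 for HSPA9 to 0.593 for HSPA1A/HSPA1B, while HSPB1, STUB1 and BAG1 name no snoRNA. After group means were taken out, the 903 pairs of loci had a median Pearson correlation of 0.162 across the 11 libraries, which share scaling. STIP1 and CCT5 had the highest value of the 903 pairs, 0.907, and HSPA4L and BAG3 the lowest, -0.911. Such extremes of many pairs over 11 libraries were not tested, and pairs of other loci are not given for comparison. The pair HSPA8 and PTGES3 reached 0.871, whereas HSP90AA1 and HSP90AB1 stood at -0.216 and HSPD1 and HSPE1 at 0.23.

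Further chaperone genes outside the 44 were described from fixed lists, and 0 of the 83 genes tested were called in limma in any comparison with DMSO. An unadjusted p under 0.05 was found for 7 of them at BPA 0.25 nM (8.43%), 12 at BPA 2500 nM (14.5%) and 8 under E2 (9.64%), against 9.11%, 17.2% and 15.4% of all loci. Of 6 prefoldin genes, which hand actin and tubulin to TRiC, 3, 3 and 2 lay above 0 with BPA 0.25 nM, BPA 2500 nM and E2. PFDN5 averaged 43.8, 42.4 and 40.8 FPKM, against 38.5 FPKM in DMSO (adjusted p 0.45, 0.276 and 0.611). Of 8 regulators and partners of TRiC, 5, 6 and 5 lay above 0. PDCL3, a phosducin-like TRiC regulator, averaged 41.9, 42.5 and 41.4 FPKM, against 37.1 FPKM in DMSO (log2 changes 0.17, 0.19 and 0.15, adjusted p 0.437, 0.106 and 0.248).

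Of 12 other HSP90 co-chaperones, 7, 6 and 8 lay above 0. PPP5C, a phosphatase bound to HSP90, averaged 10.7 FPKM with BPA 0.25 nM and 10.5 FPKM with BPA 2500 nM, against 9.58 FPKM in DMSO (adjusted p 0.396 and 0.162). Of 9 other HSP70 partners tested, 3, 2 and 4 lay above 0, and the gene with the smallest p was HSPBP1 with BPA 0.25 nM (log2 change 0.16), HSPA13 with BPA 2500 nM (-0.26) and BAG6 with E2 (-0.12). Of 16 other J-domain genes, 7, 6 and 12 lay above 0, with DNAJC14 (0.15), DNAJB14 (-0.30) and DNAJC14 (0.17) at the smallest p.

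In the mitochondrial list 7, 4 and 7 of 10 genes lay above 0, with CLPX (-0.09), DNAJC15 (0.20) and HSCB (0.39) at the smallest p. Among 8 other regulators and targets of HSF1, 5, 6 and 3 lay above 0. IER5, a target and activator of HSF1, had a log2 change of 0.14 with BPA 0.25 nM, and HSF4 stood at -0.27 with BPA 2500 nM and -0.31 with E2, at means of 0.763 and 0.72 FPKM, against 1.13 FPKM in DMSO. Of 8 further small heat shock protein genes, HSPB8 alone passed the filter, at 1.77, 1.68 and 1.68 FPKM, against 1.7 FPKM in DMSO. Chaperones of the endoplasmic reticulum showed 6, 6 and 7 of 13 genes above 0 and medians of -0.01, -0.01 and 0.00, with HYOU1 (0.23), DNAJC10 (-0.23) and CANX (0.20) at the smallest p.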

How the data were processed

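RNA of 11 libraries of IOSE80 cells was analysed. The authors deposited 1 FPKM value per locus and library. HISAT, UMI-tools, StringTie and edgeR stand in the submitters' processing notes, without versions. Those notes name hg19, but 74.8% of 14123 Ensembl loci have the start and end of GENCODE 29 on GRCh38, and positions are given on GRCh38. No source used here says whether strand was kept. Read depth is unknown from FPKM, so precision rests on the spread between libraries.

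The scale was log2(FPKM + 1), which understates changes of low genes. Loci with at least 1 FPKM in at least 2 libraries were fitted with limma 3.58.1 in R 4.3.3 (1 mean per group over all libraries, trend and robust settings with statmod 1.5.0, two-sided, Benjamini-Hochberg over 12182 loci). Log2 changes are treatment minus DMSO, or BPA 2500 nM minus BPA 0.25 nM. The method was tested on simulated data. Tables used pandas 2.3.3 and numpy 2.4.6, and plots matplotlib 3.10.9, in Python 3.11.15.

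The genes and lists were chosen with earlier results of these data known. Named in full are, per family, the most abundant locus, the locus with the smallest p per comparison with DMSO, any called locus, and HSF1 with known heat-inducible targets. From each further list the gene with the smallest p is named, except 1 gene that is not reported here. Other genes were named after their values were seen. Alternatives covered the pseudocount, filter, libraries fitted, scaling, variance moderation, replicate block, summed loci and each library left out. Protein sequences were not used here.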

Additional observations from a re-analysis of the deposited data

Results flagged for a closer look

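1 value lies outside the loci compared above. A locus on the strand opposite to HSP90AB1 (chr6:44251732-44253777, minus strand) was listed at 7.05 FPKM in E2 replicate 2, at 0.01 FPKM in BPA 0.25 nM replicate 3 and at 0 in the other libraries, DMSO included. It lies within HSP90AB1, and 7.05 FPKM is 0.623% of the HSP90AB1 value in that library. Among 116 loci that overlap a stronger locus of the same name on the other strand and reach 1 FPKM somewhere, a value in 1 library with the others under 0.1 FPKM was also found 1 time in BPA 0.25 nM replicate 3, 2 times in BPA 2500 nM replicate 3 and 2 times in DMSO replicate 2. No source used here says whether strand was kept, so reads of the 2 strands may not be separable.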

How the results depend on the processing

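Of the chaperone loci, 0 were called in limma under the 21 alternatives, of which the one without E2 libraries gives no value for E2 and the one with a mean of at least 5 FPKM holds 39 of the 43 loci, and the lowest adjusted p over them was 0.155 for BPA 0.25 nM, 0.0545 for BPA 2500 nM, 0.0553 for E2 and 0.413 between the BPA doses. Leaving out 1 library at a time left the calls at 0, with a median log2 change between 0.03 and 0.08 for BPA 0.25 nM, 0.04 and 0.09 for BPA 2500 nM, 0.08 and 0.10 for E2 and 0.00 and 0.04 between the doses. The counts without overlap ranged from 18 to 25, 15 to 21, 20 to 30 and 8 to 17 in the same order. Leaving out a library makes separation easier for every locus. For these counts and those after rescaling the share of all loci is not given here, so a change in count cannot be credited to the chaperone loci. Between the doses the 8 loci without overlap became 14 after rescaling by the median of ratios, 17 without BPA 2500 nM replicate 2 and 13 without BPA 2500 nM replicate 3. For BPA 0.25 nM, rescaling gave 11 loci above and 3 below DMSO, in place of 16 and 2. With DMSO replicate 2 and E2 replicate 2 both left out, an alternative chosen after seeing the data, 35 loci did not overlap for E2. There 1 library stands against 2 and separation is easier, and 31.5% of all loci then lay above DMSO and 40.9% below. The log2 change of HSPB1 with BPA 2500 nM, 0.24 over all libraries, was -0.05 without BPA 2500 nM replicate 1 and 0.40 without BPA 2500 nM replicate 2. The cause of these differences was not tested. Same-numbered libraries deviated together from their group means with r of -0.117 to 0.164. With 2 or 3 libraries a group, these values cannot show whether the replicate numbers pair the samples. The fit with a replicate block gave 0 calls in each comparison and medians of 0.06, 0.06, 0.09 and 0.01. With 2 or 3 libraries a group, the median SE of a log2 change over all loci was 0.0844 for the BPA doses and 0.0943 for E2, each against DMSO, which limits the size of difference that can be called.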
